A study of Arabidopsis thaliana with 12 samples.

Results

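The 2S albumin genes of Arabidopsis thaliana, SESA1 (AT4G27140), SESA2 (AT4G27150), SESA3 (AT4G27160), SESA4 (AT4G27170) and SESA5 (AT5G54740), were picked by their locus identifiers, 5 of the 33602 genes measured. Their poly-A RNA was measured in developing seeds of plants grown at 22 °C, needle-dissected out of the siliques 9 days after pollination. There were 4 groups of 3 libraries: wild-type Col-0 in a set named Col-0-1, wild-type Col-0 in a set named Col-0-2, the mutant dellaq and the mutant lec1-4. The label dellaq comes without its alleles, the labels do not say which wild-type set was grown beside which mutant, and no label ties a replicate to its own plant or harvest, so the p-values rest on a spread that may be technical. A whole seed holds embryo, endosperm and seed coat, and in such bulk samples fewer cells of a type cannot be told apart from less RNA per cell.

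2S albumins are small, sulphur-rich storage proteins that the seed lays down late in its development and uses up after germination. Each is made as a precursor in the endoplasmic reticulum, held together by disulphide bridges, sent to the protein storage vacuole and cut there into a small and a large chain. Their genes belong to the seed maturation programme: LEC1, a subunit of the CCAAT-binding NF-Y complex, acts with the B3-domain factors ABI3, FUS3 and LEC2, which bind the RY element, and with bZIP factors, which bind elements with an ACGT core. DELLA proteins hold gibberellin responses back.

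In the TAIR10.1 gene models of RefSeq, SESA1 to SESA4 stood side by side on the forward strand of chromosome 4 within 6955 bases. SESA1 spanned chr4:13607329-13608031, SESA2 chr4:13609341-13610075, SESA3 chr4:13611796-13612563 and SESA4 chr4:13613596-13614283. SESA5 lay apart, on the reverse strand of chromosome 5 at chr5:22238358-22239187. Every one of the 5 genes was a single exon with no intron, with coding regions of 495 to 513 bases. The build the authors mapped to is not given in the sources used here, and these positions are those of TAIR10.1 only.

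The tandem genes were close copies of each other and SESA5 was not. SESA2 and SESA3 shared 89.9% of aligned coding bases, the 6 pairs among SESA1 to SESA4 shared between 80.9% and 89.9%, and SESA5 shared between 64.6% and 65.1% with each of the others. The longest stretch that any 2 of them had in common is shown because it bears on whether reads can be told apart; it was 49 bases of the coding region of SESA2 and SESA3.

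SESA2 and SESA3: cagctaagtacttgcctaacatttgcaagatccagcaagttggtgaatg

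Every window of 50 bases in each of the 5 transcripts occurred once in the genome, and so did every window of 100 bases. How the authors treated reads with several matches is not given, and the kit did not mark strand.

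The 250 bases upstream of the annotated start are shown for all 5 genes, because the same short elements recur in them at nearly the same place. Capitals mark matches to the RY core CATGCA and to the core element ACGTG, searched on both strands and allowed to overlap; they are given 5′ to 3′ on the strand of the gene, from the TAIR10.1 sequence of RefSeq. The windows are chr4:13607079-13607328, chr4:13609091-13609340, chr4:13611546-13611795 and chr4:13613346-13613595 on the forward strand for SESA1 to SESA4, and chr5:22239188-22239437 on the reverse strand for SESA5.

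SESA1: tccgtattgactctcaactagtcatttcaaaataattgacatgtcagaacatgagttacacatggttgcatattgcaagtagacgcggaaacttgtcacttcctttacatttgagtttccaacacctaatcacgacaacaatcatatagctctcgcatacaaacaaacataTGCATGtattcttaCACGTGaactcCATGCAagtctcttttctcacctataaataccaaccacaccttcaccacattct

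SESA2: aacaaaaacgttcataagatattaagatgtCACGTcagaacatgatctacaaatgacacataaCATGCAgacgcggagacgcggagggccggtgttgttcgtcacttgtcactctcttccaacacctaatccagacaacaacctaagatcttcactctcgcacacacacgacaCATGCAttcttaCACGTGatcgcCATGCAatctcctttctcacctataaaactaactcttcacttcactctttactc

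SESA3: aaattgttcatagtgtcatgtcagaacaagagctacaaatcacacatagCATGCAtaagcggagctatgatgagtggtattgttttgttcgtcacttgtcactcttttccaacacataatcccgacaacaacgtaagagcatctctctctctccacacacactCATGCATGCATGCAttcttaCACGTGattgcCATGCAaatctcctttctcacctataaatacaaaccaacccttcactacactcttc

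SESA4: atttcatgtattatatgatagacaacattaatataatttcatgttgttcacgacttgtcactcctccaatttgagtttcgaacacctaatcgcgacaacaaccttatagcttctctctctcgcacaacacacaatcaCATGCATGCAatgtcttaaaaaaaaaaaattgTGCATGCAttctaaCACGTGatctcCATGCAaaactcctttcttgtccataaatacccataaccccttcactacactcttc

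SESA5: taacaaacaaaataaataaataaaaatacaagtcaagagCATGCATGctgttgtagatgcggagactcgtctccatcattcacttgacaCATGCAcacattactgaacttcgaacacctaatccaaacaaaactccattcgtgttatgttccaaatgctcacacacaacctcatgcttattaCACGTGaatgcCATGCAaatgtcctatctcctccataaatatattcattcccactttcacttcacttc

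The RY core was present in 5 of 5 windows, with 2, 3, 7, 6 and 4 matches in SESA1 to SESA5 in that order, a count in which a palindromic run is read on each strand and from overlapping starts. Among 26707 windows of the same length upstream of annotated genes, 8.5% held at least 1 match. ACGTG was present in 5 of 5 windows, against 23.1% of all windows. The CCAAT box, the letters that NF-Y binds, was found in SESA4 only, against 46.1% of all windows, and the prolamin box TGTAAAG, an element of cereal storage protein genes, in SESA1 only, against 4.5%.

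A pair of elements recurred with fixed spacing. CACGTG, 5 bases of any kind and CATGCA followed each other in all 5 windows, starting 65, 65, 67, 67 and 68 bases upstream of the start in SESA1 to SESA5. This pair was looked for after the sequences had been seen, so its presence in the 5 genes is a description. On either strand it occurred in 9 of the 26707 windows, or 0.0337%, which leaves 4 genes besides the albumins: AT1G54860, AT2G28490 (a vicilin-like gene), AT2G38610 and PSB28.

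**Figure D1:**
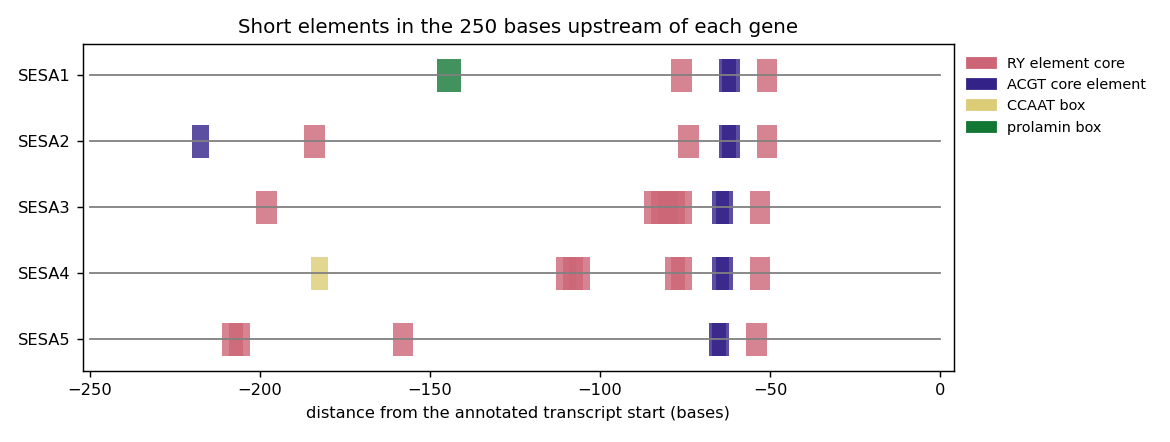
Positions of short elements in the 250 bases upstream of the 5 2S albumin genes. The x axis is the distance in bases from the annotated transcript start, each line is a gene and each bar spans a match on either strand (darker where matches overlap); the ACGT core element and the RY core next to it stand within the last 70 bases in every gene, with pairs starting 65 to 68 bases upstream.

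The libraries held an implied 13.7 M to 19.4 M fragments, read from the steps between low values, and FPKM (fragments scaled to transcript length and library depth) summed to between 685062 and 786547 per library. All 60 values of the 5 genes corresponded to whole fragments within 0.05 of a fragment with the RefSeq transcript lengths. Over all genes with a RefSeq length, only 29.4% to 34.2% of the low values of a library were whole, within 0.02 of a fragment. Transcripts of plastid-encoded genes split the libraries into 2 sides: they summed to 127.4 to 250.7 FPKM in Col-0-1 and lec1-4, and to 4523 to 8593 FPKM in Col-0-2 and dellaq. The sums of all FPKM split the same way, at 685062 to 691811 in Col-0-1 and lec1-4 and 755866 to 786547 in Col-0-2 and dellaq. A mutant is therefore compared within its side when Col-0-2 is the reference for dellaq and Col-0-1 that for lec1-4, and across sides in the other pairings. The samples are listed in the order Col-0-1, dellaq, Col-0-2, lec1-4, which places each mutant after the wild-type set of the other side. Neither the split nor the order states which set belongs to which mutant, and the part of this split in the results was not tested. LEC1 stood at 2.38 to 3.42 FPKM in the lec1-4 libraries and at 44.6 to 124 FPKM in the other 9. The 5 silique wall markers summed to 28.3 to 74.9 FPKM, against 944 to 1673 FPKM for 7 seed coat markers and 594 to 3096 FPKM for 6 endosperm markers.

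The 5 genes followed the same order of groups, dellaq far above Col-0-1, Col-0-1 above Col-0-2, and lec1-4 lowest by its mean. Together they made up 1.95% to 3.87% of all FPKM in the dellaq libraries, 0.107% to 0.455% in Col-0-1, 0.00526% to 0.0139% in Col-0-2 and 0.00137% to 0.00774% in lec1-4. Values per library are listed from replicate 1 to replicate 3 of a group.

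SESA3 was the most abundant member in every library but the third of Col-0-2. It measured 872, 400 and 1556 FPKM in Col-0-1 libraries, 26.3, 48.2 and 13.3 in Col-0-2, 7130, 13340 and 10190 in dellaq, and 11.3, 2.65 and 20.2 in lec1-4. The dellaq libraries lay above every wild-type library, and the lec1-4 and Col-0-2 libraries overlapped.

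SESA2, its closest copy, measured 502, 192 and 1003 FPKM in Col-0-1 libraries, 12.3, 28.1 and 6.56 in Col-0-2, 5161, 10516 and 7664 in dellaq, and 10.7, 2.59 and 17.5 in lec1-4. Each lec1-4 value lay just under the SESA3 value of the same library, and Col-0-2 and lec1-4 again overlapped.

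SESA4 measured 216, 86.5 and 399 FPKM in Col-0-1 libraries, 5.54, 9.43 and 3.12 in Col-0-2, 2428, 4915 and 3287 in dellaq, and 4.28, 1.71 and 4.65 in lec1-4. It was the third member by level in dellaq and in Col-0-1.

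SESA1, the first gene of the tandem array, measured 91.4, 45.1 and 163 FPKM in Col-0-1 libraries, 17.3, 18.6 and 16.0 in Col-0-2, 349, 1047 and 571 in dellaq, and 6.33, 2.24 and 8.59 in lec1-4. It was the member for which Col-0-2 and lec1-4 did not overlap, with every lec1-4 library lower. In Col-0-2 its replicates were also tighter than those of the other 4 genes, with a coefficient of variation of 7.59% against 52.9% to 71.1%, so that in the Col-0-2 library where SESA2 and SESA3 were lowest SESA1 was the most abundant of the 5.

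SESA5, the dispersed copy, was the lowest member throughout: 18.9, 7.27 and 27.9 FPKM in Col-0-1 libraries, 1.24, 2.43 and 0.727 in Col-0-2, 200, 464 and 357 in dellaq, and 0.247, 0.237 and 2.10 in lec1-4. The first 2 lec1-4 values rest on 3 implied fragments each, with Poisson 95% intervals of 0.0510 to 0.723 and 0.0489 to 0.692 FPKM, which cover counting error only. The third rests on 24 fragments and lies within the Col-0-2 range of 9 to 33 fragments.

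**Figure D2:**
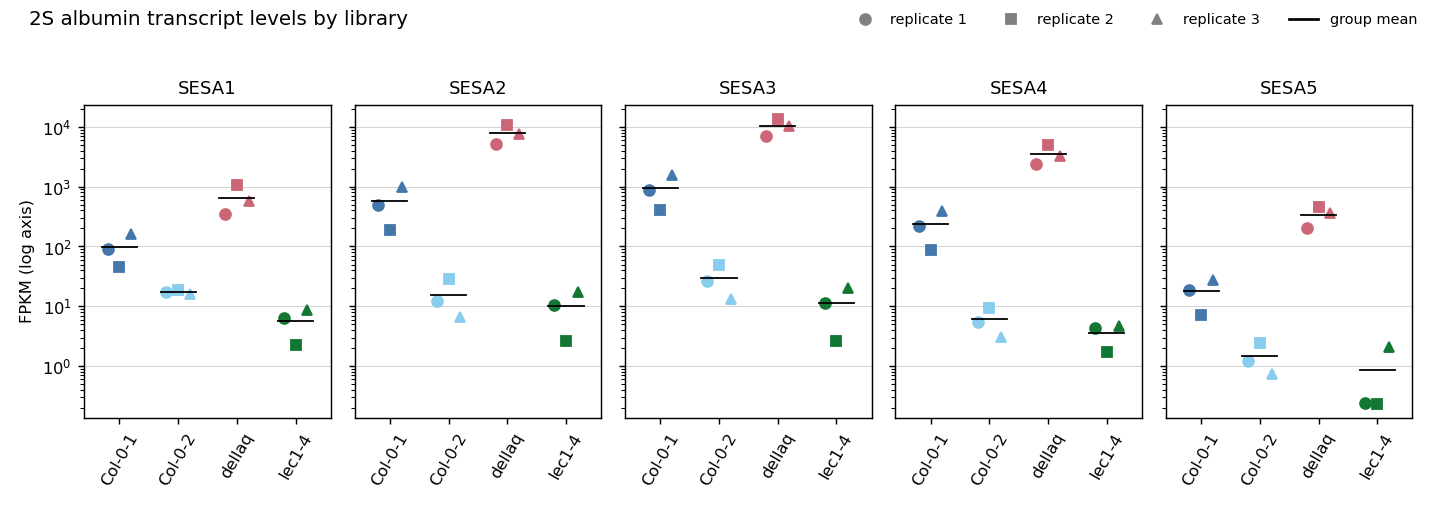
FPKM of each 2S albumin gene in each of 12 libraries (log axis; 1 symbol per replicate, lines at the mean of the 3 libraries of a group). Dellaq libraries lie above all others in every panel, and lec1-4 overlaps Col-0-2 for SESA2 to SESA5 but not for SESA1.

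Dellaq seeds held more 2S albumin transcript than either wild-type set, and the SESA1 change was the smallest of the 5 on the ratio scale. Against Col-0-1, the ratio of mean FPKM was 6.57 for SESA1, 13.8 for SESA2, 10.8 for SESA3, 15.1 for SESA4 and 18.9 for SESA5. On the log2(FPKM + 1) scale, which understates changes of low genes, the SESA2 change was 4.02 ± 0.68 (SE, n = 3 per group, limma-trend adjusted p = 2.0e-04) and the SESA5 change 4.26 ± 0.48 (adjusted p = 7.6e-06). All 5 genes were higher by this test, as were 19.4% of the 20222 genes tested (50.9% were lower), and their median change was 4.02 against -0.22 over all tested genes. Every dellaq library exceeded every Col-0-1 library for 5 of 5 genes and for 20.4% of tested genes.

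Against Col-0-2 the ratios were larger, 37.9 for SESA1, 497 for SESA2, 349 for SESA3, 588 for SESA4 and 232 for SESA5. The log2 change was 5.02 for SESA1 (limma-trend adjusted p = 2.3e-06) and 9.02 for SESA4 (adjusted p = 2.5e-08). Again 5 of 5 were higher, where 21.9% of tested genes were (and 41.6% lower); the medians were 8.53 for the 5 genes and -0.12 for all. The 2 comparisons share the dellaq libraries, so the 10 changes are not independent of each other.

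In lec1-4 seeds the result differed with the wild-type set. Against Col-0-1, all 5 genes were lower, where 10.7% of tested genes were (and 15.8% higher): the mean in Col-0-1 was 17.5 times that in lec1-4 for SESA1, 55.0 times for SESA2, 82.8 times for SESA3, 65.9 times for SESA4 and 20.9 times for SESA5. SESA3 fell by 6.38 on the log2(FPKM + 1) scale (limma-trend adjusted p = 1.8e-05), and SESA5 by 3.32 (adjusted p = 3.3e-04).

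Against Col-0-2, SESA1 alone was lower by the test, 1 of 5 where 23.3% of tested genes were lower and 42.7% higher; 25.1% of tested genes were, like SESA1, lower in every lec1-4 library than in any Col-0-2 library. SESA1 averaged 5.72 ± 3.22 FPKM in lec1-4 and 17.3 ± 1.31 in Col-0-2 (SD, n = 3), a log2 change of -1.58 ± 0.49 (SE, limma-trend adjusted p = 0.0127). SESA3 had a change of -1.45 with an adjusted p of 0.0625 in limma-trend, and SESA2, SESA4 and SESA5 had changes of -0.64, -0.60 and -0.49 with adjusted p-values of 0.424, 0.313 and 0.387. These 4 values do not show that the levels were equal, since the replicates of a group spread by up to 8.88 times. The call on SESA1 rested on the lowest lec1-4 library: without lec1-4 replicate 2 its change was -1.12 with an adjusted p of 0.0609 in limma-trend, and SESA2 stood at 0.04. SESA3 passed beside SESA1 without Col-0-1 replicate 2, Col-0-2 replicate 3 or lec1-4 replicate 3 (limma-trend adjusted p = 0.0487, 0.0307 and 0.0192).

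The wild-type sets differed from each other many-fold. Col-0-1 means were 5.77 times the Col-0-2 means for SESA1, 36.1 times for SESA2, 32.2 times for SESA3, 38.8 times for SESA4 and 12.3 times for SESA5. All 5 were lower in Col-0-2, as were 40.1% of tested genes, with log2 changes of -2.28 to -5.01 (limma-trend adjusted p between 3.6e-06 and 0.0013). Dellaq set directly against lec1-4 gave log2 changes between 6.61 for SESA1 and 9.97 for SESA3, higher for 5 of 5 genes and 20.2% of all tested.

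**Figure D3:**
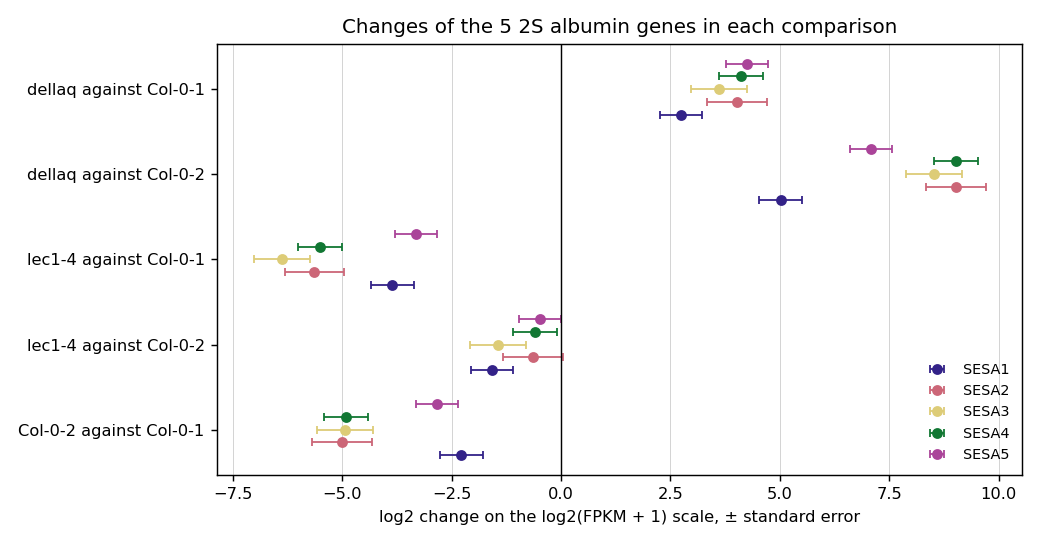
Change of each 2S albumin gene in 5 comparisons of 3 against 3 libraries, as log2 change on the log2(FPKM + 1) scale (x axis) with its standard error; each colour is a gene. All points of dellaq are above 0 and all points against Col-0-1 of lec1-4 and Col-0-2 are below it, while lec1-4 against Col-0-2 lies between -1.58 and -0.49.

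Because the 5 genes moved by different amounts, the makeup of the 2S albumin transcripts also differed. The share of a gene in the summed FPKM of the 5 genes does not depend on library scaling. SESA3 made up 51.8% ± 2.69 of it in Col-0-1, 40.2% ± 5.99 in Col-0-2, 45.6% ± 1.40 in dellaq and 33.5% ± 5.04 in lec1-4 (SD, n = 3). SESA2 made up 29.2% ± 2.79, 20.8% ± 4.99, 34.4% ± 0.534 and 31.0% ± 3.10 in the same order.

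SESA1 varied most. Its share was 5.58% ± 0.526 in Col-0-1, 28.4% ± 11.4 in Col-0-2, 2.78% ± 0.608 in dellaq and 19.7% ± 3.80 in lec1-4 (SD, n = 3), so it was high in the groups where the 5 genes together were low. SESA4 held 12.4% ± 0.505, 8.50% ± 0.573, 15.7% ± 0.695 and 13.3% ± 4.72, and SESA5 between 0.997% and 2.41% on average. The dellaq share lay below all 6 wild-type libraries for SESA1 and above all 6 for SESA2 and SESA4 (two-sided exact permutation test, p = 0.0238 each, the smallest that 3 against 6 libraries can give). After Benjamini-Hochberg adjustment over the 40 share comparisons made, these stood at 0.167, and so did the smallest adjusted value of the family. With 3 against 3 libraries the exact test cannot go below 0.1.

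**Figure D4:**
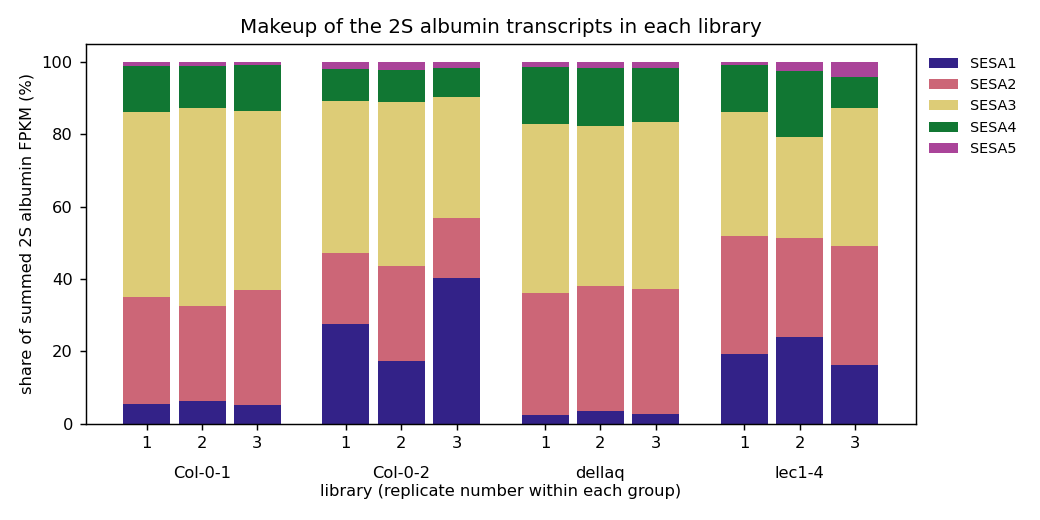
Share of each gene in the summed 2S albumin FPKM of a library (stacked bars, in percent; 3 libraries per group, numbered by replicate). SESA1, at the foot of the bars, takes 17.4% to 40.3% in Col-0-2 and at most 6.17% in every Col-0-1 and dellaq library.

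The neighbouring copies SESA2 and SESA3, the most alike in sequence, kept different proportions in mutants and wild type. SESA3 stood at 1.79 ± 0.269 times SESA2 in Col-0-1, 1.96 ± 0.218 times in Col-0-2, 1.33 ± 0.0566 times in dellaq and 1.08 ± 0.0667 times in lec1-4 (SD, n = 3). The lowest wild-type library had a ratio of 1.55 and the highest mutant library 1.38. This pair was chosen after the values had been seen, so no test is given.

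The 5 genes rose and fell together from replicate to replicate. From highest to lowest, the order of the replicates was 3, 1, 2 in Col-0-1, 2, 1, 3 in Col-0-2, 2, 3, 1 in dellaq and 3, 1, 2 in lec1-4, the same for each of the 5 genes. It was not particular to them: the storage protein genes CRA1, CRU2, CRU3, PAP85 and AT2G18540, described below, had the same order in every group. Over the 12 libraries the log2(FPKM + 1) values of any 2 of them had a Pearson r between 0.973 and 0.997. After the mean of each group was taken off, r ran from 0.851 (SESA1 and SESA5) to 0.992 (SESA2 and SESA3). The points share libraries and their scaling, so these are descriptions. Within a group, the highest library was 1.16 to 8.88 times the lowest.

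The other storage proteins gave a picture close to that of the albumins, with a wider range. The 12S globulins (cruciferins), the other main storage protein of this seed, are encoded by CRA1, CRB (CRU2, AT1G03880), CRC (CRU3, AT4G28520) and CRD (AT1G03890). CRA1 averaged 566 FPKM in Col-0-1, 75.2 in Col-0-2, 4239 in dellaq and 39.1 in lec1-4. CRC measured 68.5, 7.51 and 150 FPKM in Col-0-1 libraries, 2.29, 3.14 and 0.387 in Col-0-2, 1623, 4299 and 2800 in dellaq, and 5.02, 0.265 and 10.6 in lec1-4. CRD was listed at 0 in all 3 lec1-4 libraries, at 0.0441 to 0.398 FPKM in the 6 wild-type libraries and at 40.1 to 125 FPKM in dellaq.

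Of these 4 genes and 4 vicilin-like genes (PAP85, AT2G18540, AT4G36700 and AT2G28490), 8 of 8 were higher in dellaq than in each wild-type set. CRD reached the filter of 1 FPKM in 3 libraries only through dellaq, so its call there followed from the filter. It was not tested when any 1 dellaq library was left out, and 7 of 7 were then higher against each set. Of all tested genes, 19.4% were higher in dellaq against Col-0-1 and 21.9% against Col-0-2. In lec1-4, 7 of 8 were lower than in Col-0-1, where 10.7% of tested genes were. Against Col-0-2, 2 of 8 were lower in lec1-4, near the share of 23.3% among all tested genes. They were AT4G36700 and AT2G28490, with log2 changes of -0.94 and -1.58 (limma-trend adjusted p = 8.6e-07 and 0.0037). CRB and CRC instead had positive changes of 0.63 and 0.74 there, which did not pass (adjusted p = 0.394 and 0.519 in limma-trend), and PAP85 one of 0.59 (adjusted p = 0.255), which passed without lec1-4 replicate 2 (1.06, adjusted p = 0.0388). CRA1 was lower in every lec1-4 library than in any Col-0-2 library, with a change of -1.04 that did not pass (limma-trend adjusted p = 0.0528) but passed in 8 of 20 alternatives, among them median-ratio scaling (-1.20, adjusted p = 0.0317), without Col-0-1 replicate 2 or 3, and without lec1-4 replicate 1 or 3; the count of lower genes was then 3, as it was with CRD under a pseudocount of 0.1. The fall of CRC in lec1-4 against Col-0-1, -3.33 with an adjusted p of 0.0243 in limma-trend, was lost without Col-0-1 replicate 1, Col-0-1 replicate 3 or lec1-4 replicate 2 (adjusted p of 0.0836, 0.102 and 0.0995). AT4G36700 had the smallest change of the 8 in dellaq against Col-0-1, and ran from 165 ± 15.2 FPKM in lec1-4 to 918 ± 74.1 in dellaq (SD, n = 3).

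The balance between albumin transcripts and the globulin sum fell into 2 levels. The summed FPKM of the 5 albumin genes was 2.65 ± 0.107 times that of the 4 globulin genes in Col-0-1 and 2.69 ± 0.105 times in dellaq, but 0.855 ± 0.222 times in Col-0-2 and 0.627 ± 0.148 times in lec1-4 (SD, n = 3). Col-0-1 ranged from 2.56 to 2.77 and dellaq from 2.61 to 2.81, so the ratios overlapped although the summed levels were 731 to 3150 FPKM in one and 15269 to 30282 in the other. On log2 ratios, the exact permutation p was 0.5 for dellaq against Col-0-1, 0.1 for dellaq against Col-0-2, 0.1 for lec1-4 against Col-0-1 and 0.2 for lec1-4 against Col-0-2. Lec1-4 against all 6 wild-type libraries gave 0.0476, and no comparison was below 0.159 after adjustment over the 8 made. In Col-0-2 and lec1-4 most of the globulin sum was CRA1, at means of 75.2 and 39.1 FPKM. CRC averaged 1.94 and 5.3 FPKM there, and CRB 1.27 and 2.8. In dellaq the means were 4239 FPKM for CRA1, 2908 for CRC and 1232 for CRB. The 2 levels are thus those of a sum led by CRA1, and a ratio without CRA1 was not taken.

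**Figure D5:**
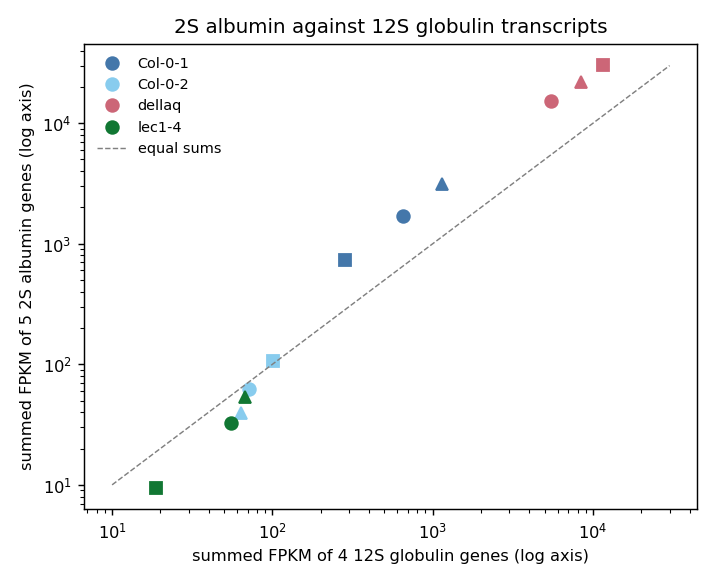
Summed FPKM of the 5 2S albumin genes (y axis) against that of the 4 12S globulin genes (x axis), both log axes, 1 point per library with symbols by replicate; the dashed line marks equal sums. Col-0-1 and dellaq lie above the line at ratios of 2.56 to 2.81, while lec1-4 lies below it and Col-0-2 around it. In Col-0-2 and lec1-4 most of the globulin sum is CRA1.

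The splits of the lists below stand beside these shares of all tested genes. In dellaq, 19.4% were higher and 50.9% lower against Col-0-1, and 21.9% and 41.6% against Col-0-2. In lec1-4, 15.8% were higher and 10.7% lower against Col-0-1, and 42.7% and 23.3% against Col-0-2. Of 11 genes for activators of storage protein genes, 10 passed the filter on low values and BZIP53 was listed at 0 in all 12 libraries. In dellaq, 4 were higher and 3 lower against Col-0-1, and 7 higher and 3 lower against Col-0-2. Those that rose against each set included the bZIP gene BZIP67 (AT3G44460), from 36.6 FPKM (Col-0-1) and 15.9 FPKM (Col-0-2) to 103 FPKM (changes of 1.49 and 2.64 on the log2 scale, limma-trend adjusted p = 9.6e-07 and 1.2e-08), and L1L (NF-YB6, AT5G47670), the nearest relative of LEC1, from 232 and 97.8 to 370 FPKM. LEC2 and BZIP25 fell against each set, LEC2 from 16.7 and 14.0 to 4.74 FPKM. LEC1, at 70.5 FPKM in dellaq, was lower than in Col-0-2, at 124 FPKM (log2 change of -0.93, limma-trend adjusted p = 0.00761). Against Col-0-1, at 80.5 FPKM, the LEC1 change of -0.3 did not pass (limma-trend adjusted p = 0.317) but passed in 1 of 20 alternatives. ABI3 was at 95.3 FPKM in dellaq and 84.3 in Col-0-1 (log2 change of 0.18, limma-trend adjusted p = 0.0713), and FUS3 at 135 and 127 FPKM (log2 change of 0.09, adjusted p = 0.317). Both passed there under median-ratio scaling, with changes of 0.43 and 0.35 (limma-trend adjusted p = 6.3e-04 and 0.00331), and under upper-quartile scaling, while the FUS3 change was -0.04 under equal FPKM sums without the storage protein genes. Against Col-0-2, where the means were 36.6 FPKM for ABI3 and 45.3 FPKM for FUS3, both were higher in dellaq, by 1.36 and 1.55 (adjusted p = 4.0e-08 and 1.7e-08 in limma-trend).

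In lec1-4, the same list had 7 higher and 3 lower against Col-0-2, and 2 higher and 6 lower against Col-0-1. LEC1 itself fell by 5.04 and 4.42 on the log2 scale (limma-trend adjusted p = 1.3e-08 and 2.5e-07). L1L was lower against each set, at 66.3 FPKM, and LEC2 higher against each, at 28.3 FPKM. ABI3, at 30.4 FPKM, was lower against Col-0-1 by 1.44 on the log2 scale (limma-trend adjusted p = 2.0e-07). It was also lower against Col-0-2 (log2 change of -0.26, limma-trend adjusted p = 0.0136), a call lost in 3 of 20 alternatives. FUS3 stood at 103 FPKM in lec1-4 against 45.3 in Col-0-2 (log2 change of 1.17, limma-trend adjusted p = 1.7e-07). Against Col-0-1, at 127 FPKM, it was lower (log2 change of -0.29, limma-trend adjusted p = 0.0214), a call lost without Col-0-1 replicate 1, Col-0-1 replicate 3, lec1-4 replicate 2 or lec1-4 replicate 3 (adjusted p of 0.0592, 0.0895, 0.0809 and 0.0627). BZIP10 (AT4G02640) rose against Col-0-2 by 0.62 (adjusted p = 2.2e-07 in limma-trend) and differed from Col-0-1 by 0.02 (adjusted p = 0.787).

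Of 7 genes for repressors of the maturation programme, 3 were higher and 4 lower in dellaq against Col-0-1 and 1 higher and 1 lower against Col-0-2. MYB118, which holds maturation genes back in the endosperm, was lower in dellaq, at 51.8 ± 2.73 FPKM, than in Col-0-1, at 89.4 ± 4.08, and in Col-0-2, at 59.9 ± 0.434 (SD, n = 3); the call against Col-0-2, a log2 change of -0.21, was lost under median-ratio scaling (-0.08, limma-trend adjusted p = 0.133). The B3 repressor genes VAL2 (AT4G32010) and VAL3 fell against Col-0-1 by 0.73 and 0.77 on the log2 scale (limma-trend adjusted p = 9.1e-07 and 1.2e-05), and against Col-0-2 had changes of 0.13 and -0.22 that did not pass (adjusted p = 0.106 and 0.0503) but passed in 2 and 5 of 20 alternatives. In lec1-4, 4 were higher and 3 lower against Col-0-2, and 0 higher and 2 lower against Col-0-1.

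Of 7 vacuolar processing enzyme and aspartic protease genes, whose products cut storage protein precursors, 4 were higher and 2 lower in dellaq against Col-0-1, and 6 higher and 1 lower against Col-0-2. BETA-VPE, the seed-type processing enzyme, rose to 125 FPKM from 70.9 (Col-0-1) and 29.1 (Col-0-2) (log2 changes of 0.82 and 2.07, limma-trend adjusted p = 8.4e-06 and 6.8e-09). The aspartic protease gene AT1G62290 rose from 135 and 43.4 to 545 FPKM. The aspartic protease gene PASPA1 (APA1) rose by 0.59 and 0.54 (limma-trend adjusted p = 4.6e-08 and 8.6e-08). DELTA-VPE, known from the inner seed coat, fell from 631 and 1700 to 210 FPKM. In lec1-4, 5 were higher and 1 lower against Col-0-2, and 3 higher and 2 lower against Col-0-1; ALPHA-VPE was higher against each set, at 87.7 FPKM against 29.8 and 64.5, though against Col-0-1 not without lec1-4 replicate 1 (log2 change of 0.38, limma-trend adjusted p = 0.0549), where 1 gene of the list was left higher. DELTA-VPE, at 818 FPKM in lec1-4, fell against Col-0-2 by 1.04 on the log2 scale and rose against Col-0-1 by 0.38 (adjusted p = 0.046 in limma-trend), a call lost in 10 of 20 alternatives, including median-ratio and upper-quartile scaling and the removal of any 1 lec1-4 library. GAMMA-VPE and the aspartic protease gene AT4G04460 rose against Col-0-2 by 0.64 and 0.72 (adjusted p = 3.2e-06 and 1.6e-06 in limma-trend).

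Of 12 genes for folding and sorting of storage proteins, 6 were higher and 5 lower in dellaq against Col-0-1, and 5 higher and 5 lower against Col-0-2. The aquaporins of the storage vacuole membrane moved most. TIP3;1 measured 52.7, 114 and 85.3 FPKM in dellaq and 0.114 to 4.80 FPKM in the 6 wild-type libraries. Outside dellaq it reached 1 FPKM only in Col-0-1 replicates 1 and 3 (1.88 and 4.80 FPKM). It therefore passed the filter only with its dellaq libraries, where it was high. The mean of BETA-TIP was 225 FPKM in dellaq, 23.7 in Col-0-1 and 7.05 in Col-0-2. PDIL1-1, a disulphide isomerase, rose by 0.56 and 0.88 on the log2 scale (limma-trend adjusted p = 2.0e-06 and 4.7e-08). The retromer gene MAG1 fell by 0.40 against Col-0-1 (adjusted p = 3.4e-06 in limma-trend) and rose by 0.16 against Col-0-2. In lec1-4, 4 were higher and 4 lower against Col-0-2, and 2 higher and 2 lower against Col-0-1. BIP2, an endoplasmic reticulum chaperone gene, and PDIL1-2 fell against Col-0-2 by 0.37 and 0.42 (adjusted p = 3.2e-05 and 9.5e-05 in limma-trend). Against Col-0-1, BIP2 rose by 0.24 (adjusted p = 0.00301 in limma-trend) and PDIL1-2 had a change of -0.13 that did not pass (adjusted p = 0.153).

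Some of these splits into higher and lower moved with the scaling of the libraries. For dellaq against Col-0-1 the activator list went from 4 and 3 to 6 and 3 under both median-ratio and upper-quartile scaling, the repressor list from 3 and 4 to between 1 and 4 and 3 and 3, the protease list from 4 and 2 to 5 and 1, and the folding list from 6 and 5 to 6 and 3. For dellaq against Col-0-2 the repressor list went from 1 and 1 to 3 and 0. For lec1-4 against Col-0-1 the protease list went from 3 and 2 to 2 and 2, and against Col-0-2 from 5 and 1 to 5 and 2. For lec1-4 against Col-0-2 the folding list ranged from 1 and 6 to 5 and 3. The splits of the albumin, globulin and vicilin-like genes in dellaq stayed at 5 and 0 and at 8 and 0 under each of the 3 other scalings. CRD, tested only through its dellaq libraries, was among the 8.

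Markers of other seed tissues moved with the same comparisons. The summed seed coat markers were 944 to 1128 FPKM in dellaq and 1449 to 1673 FPKM in the other groups. In dellaq, 7 of 7 genes were lower against Col-0-1, where 50.9% of all tested genes were. The smallest of these log2 changes, -0.31 for TT10 and -0.33 for MYB5, stood near the median of -0.22 over all tested genes. Against Col-0-2, 6 of 7 were lower, where 41.6% of tested genes were. The seventh, TT10, was higher there (log2 change of 0.19, limma-trend adjusted p = 0.0206). BAN, a tannin pathway gene, stood at 112 FPKM in dellaq, 354 FPKM in Col-0-1 and 528 FPKM in Col-0-2. The summed endosperm markers were 1301 to 1731 FPKM in Col-0-1, 594 to 671 in Col-0-2, 2835 to 3096 in dellaq and 621 to 787 in lec1-4, most of it from EPR1, an extensin-like gene of the endosperm, at 407 to 2983 FPKM. By count the 6 genes split otherwise: in dellaq 2 were higher and 2 lower against Col-0-1 (1 and 2 under equal FPKM sums without the storage protein genes), and 1 higher and 3 lower against Col-0-2 (2 and 3 under median-ratio scaling). The endosperm regulator gene ZOU (AT1G49770) stood at 17.2 FPKM in dellaq against 37.0 and 37.1 FPKM, and the imprinted gene FWA at 0.541 against 1.20 and 6.45 FPKM, both lower against each set. The sucrose transporter gene SUC5, at 97.6 FPKM in dellaq, rose against Col-0-1 (83.6 FPKM) and fell against Col-0-2 (137 FPKM). Silique wall markers summed to 63.3 to 74.9 FPKM in Col-0-1 and lec1-4 and to 28.3 to 34.9 FPKM in Col-0-2 and dellaq. FUL (AGL8, AT5G60910), a gene of the fruit valve, was at 15.5 and 16.8 FPKM in Col-0-1 and lec1-4 and at 5.05 and 2.23 FPKM in Col-0-2 and dellaq. No marker list had all its genes at 0, and the part of these differences in the albumin values was not tested.

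Of the genes beside the albumins, those that were tested did not share their pattern. Next to the tandem array, AT4G27130 measured 134 to 166 FPKM over all 12 libraries, AT4G27120 40.3 to 47.1 FPKM and the kinesin gene ATK2 54.3 to 76.4 FPKM. AT4G27190, too low to be tested, was at 0.0631 to 0.0969 FPKM in dellaq and at most 0.0443 FPKM elsewhere. Next to SESA5, G18F measured 8.53 to 11.6 FPKM and AT5G54750 48.7 to 68.8 FPKM. DEG16, also not tested, was at 0.12 FPKM in dellaq replicate 1 and at 0 elsewhere. AT5G54720 went opposite to SESA5 in dellaq and between the wild-type sets, with a mean of 0.406 FPKM for dellaq, 2.67 for Col-0-1 and 8.36 for Col-0-2 (log2 changes in dellaq of -1.39 and -2.71, limma-trend adjusted p = 1.1e-04 and 4.1e-07). In lec1-4, at 2.12 FPKM, it was lower than in Col-0-2 (log2 change of -1.59, limma-trend adjusted p = 4.0e-05), the sign of the SESA5 change there. Its change in lec1-4 against Col-0-1, -0.27, did not pass (limma-trend adjusted p = 0.398).

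Among genes with a mean of at least 5 FPKM, the 8 genes whose log2(FPKM + 1) values over the 12 libraries were most like the mean of the 5 albumins had a Pearson r from 0.992 to 0.997, a description over libraries that fall into 4 groups. The globulin gene CRA1 came first, and the vicilin-like genes AT2G18540 and AT2G28490 and the caleosin gene CLO1 (AT4G26740), an oil body protein gene, were among them. The others were AT3G63040, AT3G54940, AT4G25980 and RAB28. Of the 4 other genes with the spaced pair of elements, AT2G28490 averaged 65.2, 9.26, 643 and 2.89 FPKM in Col-0-1, Col-0-2, dellaq and lec1-4, and AT1G54860 averaged 44.6, 4.80, 274 and 0.652 FPKM. PSB28 (119, 80.0, 135 and 71.7 FPKM) and AT2G38610 (25.3, 26.3, 17.3 and 27.4 FPKM) varied far less. In these last 2 genes the pair began 132 and 215 bases upstream, in the first 2 genes 80 and 62 bases. It lay on the strand of the gene in PSB28, as in the 5 albumin genes. In AT2G28490, AT1G54860 and AT2G38610 it lay on the opposite strand, so the position given is that of its CATGCA end. A link of position or strand to level was not tested.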

How the data were processed

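Poly-A RNA-seq values of 12 libraries in 4 groups were analysed. Per the file headers, the authors deposited FPKM, 1 value for each gene and library. Tools named in the submitters' processing notes, with no role stated, are DESeq 1.18.0, HTSeq 0.6.1, TopHat2 2.0.12 and Bowtie2 2.2.3. Build, annotation and counting mode are not given there. A gene was tested if it reached 1 FPKM in 3 or more libraries (20222, leaving 13380 untested; 5 of 5 albumin genes passed), with limma-trend (limma 3.58.1, R 4.3.3) on log2(FPKM + 1), with a pseudocount of 1, a mean for each of the 4 groups (8 residual degrees of freedom), and two-sided Benjamini-Hochberg adjusted p-values at 0.05 over all tested genes. The script was tested on simulated data. Shares and log2 ratios were compared by exact permutation tests (SciPy 1.17.1). Fragments were inferred from FPKM steps and TAIR10.1 exon lengths; 32835 of 33602 identifiers had a gene model there. Coding regions were aligned with Biopython 1.88.

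The members and all gene lists were chosen with earlier results of these data known. Named genes were the members, the globulin and vicilin-like genes, up to 3 genes per list with the smallest p in dellaq against Col-0-1 and in lec1-4 against Col-0-2, LEC1, ABI3, FUS3, LEC2, BZIP53, the 2 nearest genes on each side and the 8 most alike by Pearson r among genes with a mean of at least 5 FPKM; L1L, BETA-VPE, FWA and the genes with the spaced pair were added after their values had been seen. For endosperm, seed coat and silique wall lists a few of the genes so chosen are named. Alternatives were other pseudocounts, filters, scalings and sample sets, a replicate block and leaving out each library.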

Additional observations from a re-analysis of the deposited data

How the results depend on the processing

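The counts of 2S albumin genes past the threshold (5 of 5) and their directions did not change under any alternative for dellaq against either wild-type set, for lec1-4 or Col-0-2 against Col-0-1, or for dellaq against lec1-4. The exception was lec1-4 against Col-0-2, with 1 gene lower: the count was 2 under median-ratio scaling and ranged from 0 to 2 when 1 library was left out, 0 without lec1-4 replicate 2. SESA3 was the gene gained, with a change of -1.59 under median-ratio scaling (limma-trend adjusted p = 0.0451); with 1 library left out, the SESA2 change ranged from -1.14 (without lec1-4 replicate 3) to 0.04 (without lec1-4 replicate 2). The cause was not tested. Under median-ratio scaling, changes in dellaq against Col-0-1 of GAMMA-VPE (-0.25) and PDIL1-2 (-0.17) turned to 0.01 and 0.08. Changes that had not passed also changed sign: FUS3 in dellaq against Col-0-1 to -0.04 with equal FPKM sums, and BZIP10 in lec1-4 against Col-0-1 to -0.02 under median-ratio and upper-quartile scaling and, with 1 library left out, as low as -0.01. Median-ratio scaling moved the median change of all genes in dellaq against Col-0-1 from -0.22 to 0.00267, and equal FPKM sums without the storage protein genes moved it to -0.34. With the replicate number as a block the count stayed at 1 for lec1-4 against Col-0-2 and at 5 for the other comparisons. Deviations of same-numbered libraries from their group means correlated at -0.102 to 0.189 (18 pairs), so the numbers were not taken to pair samples. With 3 libraries per group, and 3 implied fragments for SESA5 in 2 lec1-4 libraries, small differences at the low end were not detectable.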
